A study of Homo sapiens with 4 samples.

Results

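The transcriptome of the line 769-P, grown from a human clear cell carcinoma of the kidney, was described in its untreated state from 2 of the 4 RNA sequencing libraries of the series. The cells carried a stably transfected, inducible short hairpin RNA (shRNA) against the ubiquitin protease USP35 and were otherwise labelled wild type. They grew under puromycin in RPMI 1640 that held sodium pyruvate, penicillin and streptomycin and 10% FBS, at 37 °C and 5% CO2. The other 2 libraries, from the same cells after 4 days of doxycycline at 1 µg/ml, which induces the hairpin, were not used. All 19951 rows annotated as protein-coding among the 58735 rows of each table were taken, with no selection by level. Levels are in FPKM, fragments per kilobase of exon scaled for the size of the library, and pairs of values are replicate 1 and replicate 2 in that order. The source does not say that the replicates were separate cultures, whether the cells were 1 clone, or whether the hairpin was silent without doxycycline, and parental 769-P cells were not analysed here.

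Clear cell renal carcinoma is held to arise from the proximal tubule, the nephron segment that takes back filtered sugar, amino acids, phosphate and small proteins. Most of these tumours lose VHL, the part of a ubiquitin ligase that marks the hypoxia-inducible factors (HIF) for destruction, and the cells are known for stored lipid and glycogen. The paired-box factor PAX8 is a lineage marker of renal epithelium that these tumours keep.

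The untreated cells held transcripts of the renal lineage marker and of 4 other genes chosen to mark the line. PAX8 (ENSG00000125618, chromosome 2, 113215997 to 113278950, minus strand, GRCh38) was at 48.6 and 53.9 FPKM, rank 710 of 19951. PAX2, its paralog in the developing kidney (chromosome 10, 100735603 to 100829941, plus strand), was at 4.78 and 5.31 FPKM, so that PAX8 exceeded it 10.2-fold in each library. GGT1, a brush border peptidase that breaks down extracellular glutathione (chromosome 22, 24583750 to 24629005, plus strand), was at 48.5 and 50.8 FPKM. The levels of PAX8 and GGT1 overlapped and were not told apart. In bulk RNA, few cells with a transcript and little of it per cell cannot be told apart either.

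Of the other markers, NQO1, a quinone reductase (chromosome 16, 69706996 to 69726951, minus strand), was at 159 and 144 FPKM and ranked 170. AXL, a receptor tyrosine kinase that binds the vitamin K-dependent protein GAS6 (chromosome 19, 41219203 to 41261766, plus strand), was at 131 and 120 FPKM and ranked 219. Both lie far above the other 3 markers, and no order is read between them, since their difference is within the length-linked differences between the libraries given at the end. USP35 itself (chromosome 11, 78188812 to 78214711, plus strand) was at 3.31 and 4.19 FPKM, from 275 and 382 reads, rank 7405. PAX8 lies on the same scale more than an order of magnitude above the hairpin's target, and the level of USP35 is that of untreated cells only.

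The 250 bases upstream of the RefSeq start of 3 of these marker genes are shown because the markers differ in CpG content, which is taken up with the promoters of all genes. Sequences are on the strand of the gene, 5′ to 3′, from RefSeq on GRCh38.p14, with each CpG in capitals. The windows are chr2:113278922-113279171 for PAX8 (minus strand), chr16:69726561-69726810 for NQO1 (minus strand) and chr19:41218973-41219222 for AXL (plus strand).
PAX8: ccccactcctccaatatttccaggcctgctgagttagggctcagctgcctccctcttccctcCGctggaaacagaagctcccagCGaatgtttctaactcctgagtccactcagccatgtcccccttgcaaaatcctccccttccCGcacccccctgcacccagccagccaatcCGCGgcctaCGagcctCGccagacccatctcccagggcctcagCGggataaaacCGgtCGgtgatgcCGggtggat
NQO1: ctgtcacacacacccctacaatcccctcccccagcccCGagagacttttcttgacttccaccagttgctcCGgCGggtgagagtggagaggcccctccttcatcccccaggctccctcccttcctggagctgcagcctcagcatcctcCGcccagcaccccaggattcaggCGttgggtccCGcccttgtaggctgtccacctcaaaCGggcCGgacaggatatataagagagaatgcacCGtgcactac
AXL: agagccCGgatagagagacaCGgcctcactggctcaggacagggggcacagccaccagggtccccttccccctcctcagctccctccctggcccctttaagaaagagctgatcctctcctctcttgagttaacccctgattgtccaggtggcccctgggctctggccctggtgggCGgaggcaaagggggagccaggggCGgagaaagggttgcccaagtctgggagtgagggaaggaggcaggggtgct
The PAX8 window holds 11 CpG, the NQO1 window 9 and the AXL window 4, although all 3 genes were at high levels in both libraries.

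Close to 1 in 2 protein-coding genes was expressed. At 1 FPKM or more in both libraries stood 9965 genes, 49.9% of the 19951. A further 275 genes reached 1 FPKM in only 1 library. No read at all was listed for 4787 genes, 24.0%, in either library, and 1318 more were at 0 in only 1 of them. Between these, 5042 genes had some reads but a mean under 1 FPKM and together held 0.411% of the summed FPKM. The median over all protein-coding genes was 1.07 FPKM in replicate 1 and 1.12 in replicate 2, and over the expressed genes 8.13 and 7.95.

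A few genes carried most of the signal. The 300 genes whose mean reached 100 FPKM, 1.5% of all, held 52.1% of the summed protein-coding FPKM, and the 18 genes at 1000 or more held 30.1%. The 100 highest genes held 41.7% ± 0.387 (SD, n = 2), at 41.5% in replicate 1 and 42.01% in replicate 2. Without the mitochondrially encoded genes the 100 highest held 21.8%. In contrast, the 9390 genes between 1 and 50 FPKM held 36.5%. The plot of level against rank shows where the markers lie on this range.

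**Figure D1:**
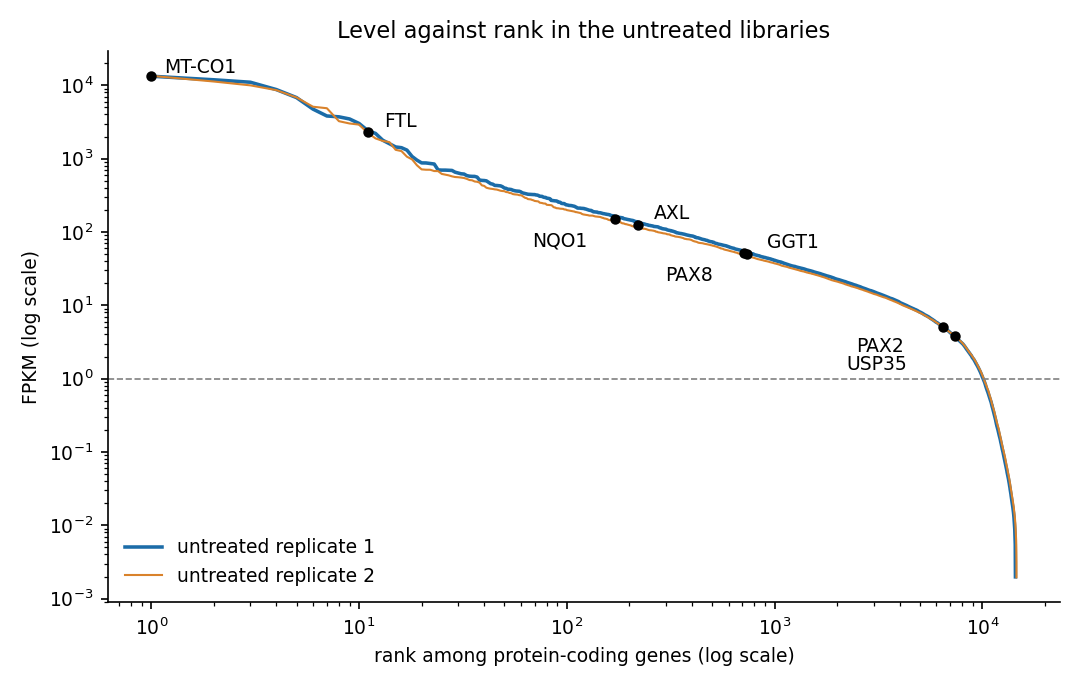
FPKM (log scale) against rank among 19951 protein-coding genes (log scale), 1 line per untreated library, genes at 0 left out. Dots give the mean level and rank of named genes, and the dashed line marks 1 FPKM; NQO1 ranks 170, PAX8 710 and USP35 7405.

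Of the 20 highest genes, 12 were mitochondrially encoded subunits of the respiratory chain and ATP synthase. MT-CO1, the catalytic subunit of cytochrome oxidase, led with 13285 and 13447 FPKM, followed by MT-CO2 at 11874 and 11246 and MT-CO3 at 10994 and 9967. The 13 mitochondrial genes held 25.9% and 27.6% of the summed FPKM, but 6.84% and 7.08% of all reads, since FPKM divides by length and these genes are short. MT-ATP8 was the lowest of them at 118 and 131 FPKM, 108-fold below MT-CO1, and it overlaps MT-ATP6 on the same strand.

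The 8 nuclear genes in that group served iron storage, the cytoskeleton, translation and glycolysis. FTL, the light chain of ferritin, was the highest nuclear gene at 2416 and 2245 FPKM, and FTH1, the heavy chain, was at 857 and 809. FTL exceeded FTH1 2.80-fold ± 0.0326 (SD, n = 2), with the reservation that 62% of the exonic bases of FTH1 are shared with another gene. The actins ACTG1 and ACTB stood at 2204 and 1886 FPKM and at 1305 and 1061. TMSB10, which binds actin monomers, was at 1594 and 1317. The elongation factor EEF1A1 was at 1441 and 1265, the glycolytic enzyme GAPDH at 1068 and 974, and the small-subunit ribosomal protein RPS12 at 952 and 713.

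The gene groups behind these leaders were high as a whole. Of 79 cytosolic ribosomal protein genes 78 were expressed (98.7%, against 49.9% of all), with a median percentile of 99.3 among protein-coding genes. They held 6.68% and 5.81% of the summed FPKM. Of 34 actin and contractile genes 29 were expressed (85.3%, against 49.9% of all). Of these 34, 18 had a mean of at least 50 FPKM, as 3.67% of all genes had. The muscle actin ACTC1 was listed at 0 in both libraries, and ACTG2 was at 0.0496 and 0. Of 20 translation factors 18 were expressed (90%, against 49.9% of all). Among them were EEF2 at 382 and 388 FPKM and PABPC1 at 393 and 361.

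A listed value of 0 did not always mean a silent gene. EEF1G, a subunit of the elongation complex that growing cells use, was listed at 0 in both libraries, and 99.9% of its exonic bases lie in exons of another annotated gene. Of the 525 protein-coding genes with more than 90% of their exonic bases shared in this way, 0 reached 1 FPKM in both libraries and 81.1% were at 0. Of the 608 genes with 50% to 90% shared, 19.1% were expressed. Below that the share of expressed genes did not fall with sharing. It was 45.2% for the 11097 genes with no shared base (29.6% at 0), 64.5% for the 4820 with up to 10% shared (10.5% at 0) and 59.6% for the 2901 with over 10% and under 50% (12.9% at 0). For this reason genes are described as listed at 0 and not as silent, and the share is given for genes below 1 FPKM with 40% or more of their exons shared. Among genes with reads, EIF4A1, an RNA helicase of translation initiation, was at 0.628 and 0.691 FPKM with 48.6% shared, and the glycolytic aldolase ALDOA at 2.90 and 3.21 with 53.5% shared.

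Kidney transcription factors ranged from PAX8, the only one with a mean of 50 FPKM or more, to genes listed at 0. Of 39 genes, 21 were expressed (53.8%, near the 49.9% of all) and 7 were at 0 (17.9%, against 24.0% of all). The median percentile was 53.0. The median level was 1.32 and 1.78 FPKM. Among those expressed beside PAX8 was LHX1, a LIM factor of the early nephron, at 25.6 and 27.3 FPKM. WT1, known from nephron progenitors and podocytes, was at 3.85 and 4.47, and SIX2, known from nephron progenitors, at 0.314 and 0.312.

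HNF4A, a nuclear receptor that drives proximal tubule genes, was listed at 0 in both libraries. Its exons share no base with another gene, and 3 reads in replicate 1 would have been 0.0259 FPKM. Its paralog HNF4G was at 10.5 and 11.7 FPKM. EMX2 and FOXI1, the latter known from intercalated cells, were also at 0, as were IRX1 and IRX2, while IRX3 was at 9.96 and 10.9. HNF4G, WT1, SIX2, IRX1, IRX2 and IRX3 were chosen after their values were seen.

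HOX genes, which set position along the body axis, were expressed from 3 of the 4 clusters. Of 39 genes, 7 were expressed (17.9%, against 49.9% of all) and 22 were at 0 (56.4%, against 24.0% of all). HOXA9 was the highest at 9.24 and 7.87 FPKM, then HOXA3 at 5.46 and 5.61, HOXD8 at 3.74 and 3.89 and HOXC9 at 3.53 and 3.86. HOXA10 was at 2.79 and 2.14, HOXA5 at 2.03 and 1.45 and HOXA4, with 47.3% of its exons shared, at 1.12 and 1.31. The 11 HOXA genes (chromosome 7, 27092993 to 27200106) had 1144 and 1146 reads in all.

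In the HOXB cluster (chromosome 17, 48528526 to 48729178), 9 of 10 genes were listed at 0 in both libraries. The exception was HOXB9, with 2 and 3 reads. In the HOXD cluster (chromosome 2), HOXD8 alone was above 1 FPKM, and 7 of 9 genes were at 0, including its neighbour HOXD9. Among those at 0, HOXD1 and HOXD3 have 58.1% and 74.1% of their exons shared. In the HOXC cluster (chromosome 12), HOXC9 alone was above 1 FPKM, and 4 of 9 genes were at 0, including HOXC5, with 59.9% of its exons shared. In the A cluster, HOXA7, with 62.5% of its exons shared, and HOXA11, with 31.1%, were also at 0.

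**Figure D2:**
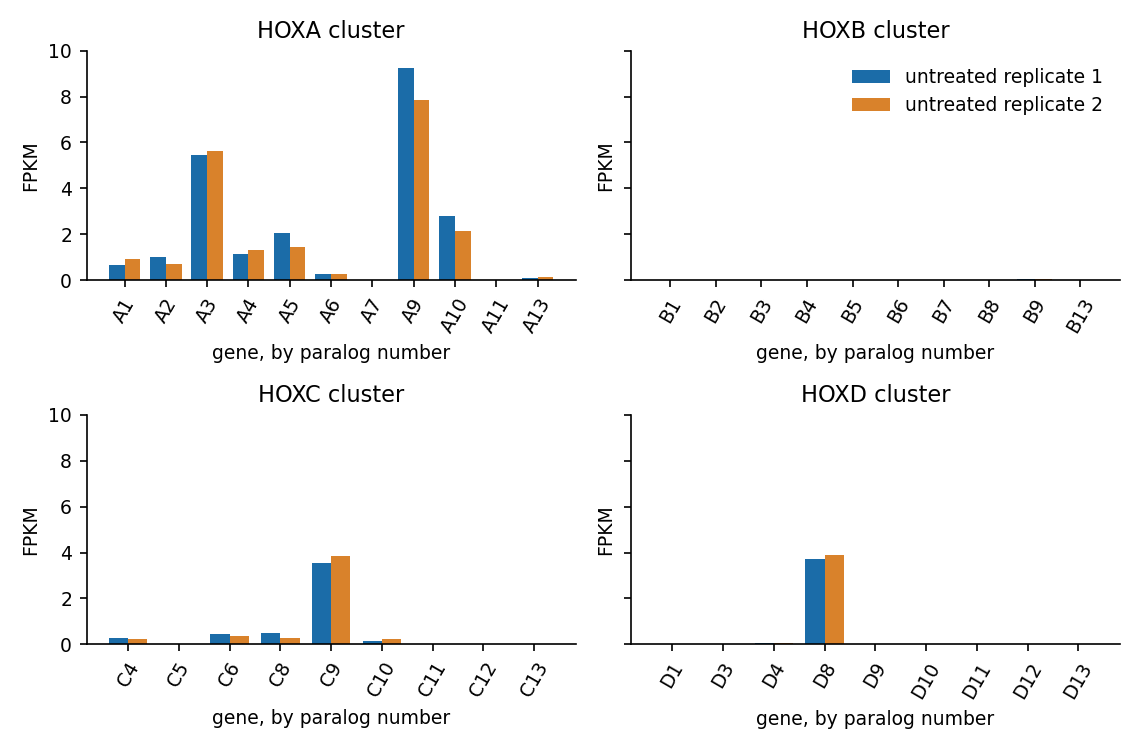
FPKM of 39 HOX genes in the untreated libraries, 1 panel per cluster, genes in order of paralog number, 1 bar per library. HOXA9 reaches 9.24 FPKM, 1 gene each of the C and D clusters passes 3 FPKM, and the B cluster holds 2 and 3 reads.

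A minority of proximal tubule genes was expressed. Of 60 genes 17 were expressed (28.3%, against 49.9% of all) and 16 were at 0 (26.7%, near the 24.0% of all). The median percentile was 39.6. Among the groups of this list, the one of uptake receptors and peptidases had the largest share expressed, 8 of 17 (47.1%, near the 49.9% of all). HAVCR1, also called KIM-1 and known from injured tubules, was at 62.9 and 89.4 FPKM. PDZK1IP1, a small membrane protein, was at 65.1 and 62.9, and its scaffold partner PDZK1 at 52.9 and 47.4. The endocytosis receptors were low, with LRP2 (megalin) at 0.0388 and 0.0706 FPKM and CUBN (cubilin) at 0.589 and 0.675. The peptidases DPEP1 and ENPEP were at 0.

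Of 25 proximal tubule transporters 5 were expressed (20%, against 49.9% of all) and 8 were at 0 (32%, against 24.0% of all). The urate and phosphate transporters SLC17A1 and SLC17A3, neighbours in the genome, were at 32 and 51.9 FPKM and at 26.4 and 28.3. The bicarbonate transporter SLC4A4 was at 16.9 and 20.9, and the glucose transporter SLC2A2 at 6.09 and 9.63. The organic anion transporters SLC22A6 and SLC22A8 and the amino acid transporter SLC6A19 were listed at 0, and the glucose transporter SLC5A2 was at 0.0988 and 0.0643. Of 18 metabolic enzymes 4 were expressed (22.2%), led by MIOX, the inositol oxygenase of this segment, at 21.8 and 25. The gluconeogenic enzymes FBP1 and PCK1 were at 0, where 3 reads would have been 0.109 and 0.0991 FPKM for FBP1. Apart from the 3 highest of the list and DPEP1 and ENPEP, the tubule genes named here were chosen after their values were seen.

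Few genes of other nephron segments were expressed. Of 33 genes 5 were expressed (15.2%, against 49.9% of all) and 13 were at 0 (39.4%, against 24.0% of all). By segment, 2 of 6 podocyte, 1 of 6 loop of Henle, 1 of 7 distal tubule and 1 of 14 collecting duct genes were expressed. The highest was CLDN16, the tight junction protein of the thick ascending limb, at 13.3 and 13 FPKM. The other 4 were TRPM7 at 5.80 and 5.86, the podocyte genes PODXL at 4.54 and 5.02 and SYNPO at 2.93 and 2.85, and AQP3 at 1.62 and 2.59. Of these, TRPM7 is a channel of many cell types. UMOD and KCNJ1 of the loop of Henle, CLIC5 of podocytes and SCNN1G, AQP6 and SLC4A1 of the collecting duct were at 0.

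Few listed genes of the cells that surround tubule epithelium in tissue were expressed. Of 20 leukocyte genes 0 were expressed, against 49.9% of all protein-coding genes. The highest, ITGAM, was at 0.299 and 0.353 FPKM, and CD3E, CD4 and LYZ were at 0. Of 14 endothelial genes 10 were at 0 (71.4%, against 24.0% of all), among them PECAM1, CDH5 and VWF. The only endothelial gene expressed was EGFL7, at 22.3 and 20.8 FPKM. Of 15 fibroblast and mural genes, smooth muscle actin ACTA2 alone was expressed (6.67%, against 49.9% of all), at 14.3 and 11.6 FPKM. Of the same 15, 3 were at 0 (20%, near the 24.0% of all). Collagen genes COL1A1 and COL3A1 were at 0.680 and 0.632 and at 0 and 0.00843, and DCN, LUM and THY1 were at 0.

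Mesenchymal structural genes were expressed beside some epithelial ones. Of 40 mesenchymal genes 28 were expressed (70.0%, against 49.9% of all) and 12 had a mean of 50 FPKM or more, as 3.67% of all genes had, with a median percentile of 78.8. The galectin LGALS1 was at 576 and 424 FPKM, the intermediate filament VIM at 502 and 380, and fibronectin FN1 at 361 and 487. VIM and LGALS1 were higher in replicate 1 and FN1 in replicate 2. N-cadherin, CDH2, was at 71.2 and 77.1 FPKM. E-cadherin, CDH1 (chromosome 16, 68737225 to 68835548, plus strand), was listed at 0 in both libraries, with 5.62% of its exonic bases shared. Kidney cadherin, CDH16, was at 10.1 and 12.7, and CDH2 exceeded it 6.58-fold ± 0.689 (SD, n = 2).

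Among 10 mesenchymal regulators 4 were expressed (40%, against 49.9% of all). The forkhead factor FOXC2 was at 29.4 and 23.6 FPKM, FOXC1 at 5.03 and 5.43, ZEB1 at 3.30 and 4.19 and SNAI1 at 1.94 and 1.40. SNAI2 at 0.650 and 0.559, TCF4 at 0.238 and 0.260 and ZEB2 at 0.101 and 0.147 did not reach 1 FPKM. TWIST1, TWIST2 and PRRX1 were at 0.

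Of 49 epithelial genes 23 were expressed (46.9%, near the 49.9% of all) and 6 were at 0 (12.2%, against 24.0% of all). The median percentile was 46.4. CLDN2, the pore-forming claudin of proximal tubule, was the highest at 159 and 198 FPKM. Among the other claudins, CLDN1 was at 95 and 69.7 and CLDN4 at 50.4 and 43.0. CLDN2 lay above CLDN1 in each library, by 1.67-fold and 2.84-fold. Keratins KRT80, KRT8 and KRT18 were at 92.2 and 86.4, 73.0 and 68.5, and 62.3 and 50.05 FPKM, and KRT19 was at 0.108 and 0.0246. The desmosome genes DSG2 and DSP were at 60.3 and 62.2 and at 20.1 and 27.4. EPCAM was at 0.225 and 0.410.

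The regulators of epithelial splicing and transcription were low. Of 10 such genes ELF3 alone was expressed (10%, against 49.9% of all), at 2.78 and 4.19 FPKM. ESRP1, GRHL3 and RAB25 were at 0, ESRP2 was at 0.0453 and 0.0413, GRHL2 at 0.0208 and 0, OVOL1 at 0.0164 and 0 and EHF at 0.0144 and 0. The strip of list members sets these groups beside each other.

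**Figure D3:**
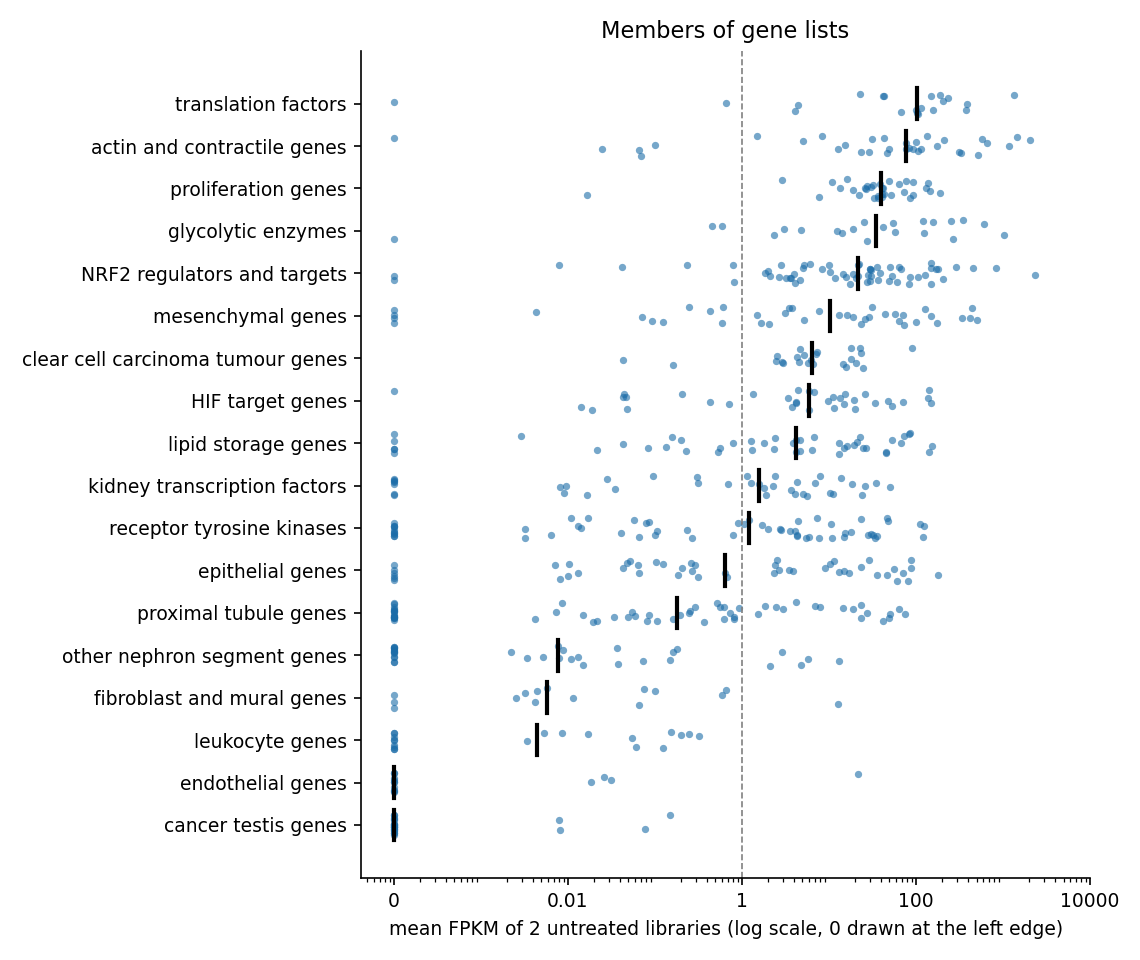
Mean FPKM of 2 untreated libraries (log scale, 0 drawn at the left edge) for the members of 18 gene lists, 1 dot per gene, with the median of each list as a bar and 1 FPKM as a dashed line. Translation, actin and proliferation genes lie to the right, and endothelial and cancer testis genes mostly at 0.

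In the HIF pathway, VHL was near 0. Both main alpha subunits were expressed, below the median of expressed genes (8.13 and 7.95 FPKM). VHL (chromosome 3, 10141008 to 10152220, plus strand) had 3 reads in each library, 0.0449 and 0.0409 FPKM, with no exonic base shared with another gene. EPAS1, which encodes HIF-2 alpha, was at 2.86 and 2.73 FPKM, and HIF1A at 1.37 and 1.14, so that EPAS1 exceeded HIF1A 2.24-fold ± 0.223 (SD, n = 2). Their partner ARNT was at 7.46 and 8.30, and HIF3A was at 0. The prolyl hydroxylases, which mark HIF alpha in oxygen, stood at 18.3 and 16.2 FPKM for EGLN1, 0.958 and 1.35 for EGLN2 and 0.206 and 0.211 for EGLN3. The other subunits of the VHL ligase were present, with ELOB at 111 and 88.2, ELOC at 18.7 and 15.7, CUL2 at 16.4 and 15.3 and RBX1 at 16.6 and 14.9.

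Of 35 HIF target genes outside glycolysis 25 were expressed (71.4%, against 49.9% of all), with a median percentile of 70.3. SCD, a fatty acid desaturase, was at 118 and 167 FPKM, and the cyclin CCND1 at 146 and 127. VEGFA was at 6.66 and 5.18. The carbonic anhydrase CA9, a common marker of this tumour type, had 1 read in replicate 1 and 0 in replicate 2, with 38.5% of its exons shared. NDUFA4L2 had 4 reads and 0 reads, and EGLN3 had 24 and 27. The list thus ranged from 5 genes with a mean of 50 FPKM or more, the highest at 151, to members with a handful of reads. VEGFA and NDUFA4L2 were chosen after their values were seen.

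Glycolytic genes were high. Of 22 genes 19 were expressed (86.4%, against 49.9% of all). Of these, 10 had a mean of 50 FPKM or more, as 3.67% of all genes had. The median percentile was 93.8. After GAPDH came the pyruvate kinase PKM at 616 and 605 FPKM and the enolase ENO1 at 370 and 328. LDHA exceeded LDHB 6.20-fold ± 0.0826 (SD, n = 2), at 175 and 145 against 28.0 and 23.6. Of the glucose transporters, SLC2A1 was at 56.9 and 54.0 and SLC2A3 was listed at 0 in both libraries. PDK1, which restrains pyruvate entry into mitochondria, was at 0.496 and 0.417. LDHA, LDHB and SLC2A1 were chosen after their values were seen.

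Genes of lipid synthesis were largely present, and most droplet coat genes were not. Of 25 synthesis and uptake genes 18 were expressed (72%, against 49.9% of all). They were led by ACLY at 151 and 160 FPKM, SCD and FASN, the fatty acid synthase, at 80.6 and 93.2. Of 9 droplet coat genes 3 were expressed (33.3%). These were PLIN3 at 88.7 and 78.7, PLIN2 at 20.6 and 18.2 and HILPDA at 4.75 and 3.74, and PLIN5, CIDEA and CIDEB were at 0, the last with all of its exonic bases shared. Of 12 breakdown genes 8 were expressed (66.7%, against 49.9% of all). HADHA of mitochondrial beta-oxidation was at 68.8 and 66.5 and CPT1A, its gatekeeper, at 3.82 and 4.01. Of 20 glycogen genes 12 were expressed (60%, against 49.9% of all). The brain-type phosphorylase PYGB, at 121 and 113 FPKM, exceeded the liver-type PYGL 33.4-fold ± 1.57 (SD, n = 2), and the muscle-type PYGM was at 0 and 0.0231.

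Of 24 genes known for mutation or loss in clear cell carcinoma or related tumours, 22 were expressed (91.7%, against 49.9% of all). The exceptions were VHL and CDKN2A, an inhibitor of cell cycle kinases, which was at 0.277 and 0.0531 FPKM from 19 and 4 reads. Its neighbour CDKN2B was at 2.49 and 2.55. The chromatin genes of the short arm of chromosome 3 were expressed, with BAP1 at 17.8 and 18.4, SETD2 at 6.62 and 8.22 and PBRM1 at 4.34 and 4.85. KMT2D was at 4.80 and 9.60, the largest ratio between libraries in this list apart from CDKN2A. FH, the mitochondrial fumarase, was the highest at 94.3 and 86.1.

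Genes of the NRF2 response, the cell's defence against oxidants, were high in most branches. Of 63 genes 56 were expressed (88.9%, against 49.9% of all). Of these, 19 had a mean of 50 FPKM or more, as 3.67% of all genes had. The median percentile was 89.96. NFE2L2, which encodes NRF2, was at 18.3 and 16.7 FPKM, and its inhibitor KEAP1 at 30.9 and 28.0. The autophagy receptor SQSTM1 was the highest of the regulators at 186 and 173. All 6 genes of NADPH supply were expressed, led by TALDO1 at 117 and 97.7 and TKT at 66.6 and 68.9.

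Among the branches, thioredoxin genes had the highest median percentile, 98.1, with 10 of 11 expressed (90.9%, against 49.9% of all). PRDX1 was at 504 and 401 FPKM, TXN at 325 and 263 and TXNRD1, the reductase of TXN, at 130 and 126. PRDX2 was the exception at 0.994 and 0.658, below 1 FPKM in both libraries. Among reductases, the aldose reductase AKR1B1 was at 192 and 152 and AKR1C3 at 61.5 and 67.6. The related neighbours of AKR1C3, AKR1C1 and AKR1C2, were at 2.99 and 3.44 and at 1.96 and 2.09. AKR1C3 exceeded AKR1C1 20.1-fold ± 0.654 (SD, n = 2), but reads shared between related genes can be lost or split in counting. ALDH3A1 was at 0.0161 and 0.

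Within the glutathione branch, 14 of 18 genes were expressed (77.8%, against 49.9% of all), and the glutathione transferase GSTP1 was listed at 0. GSTP1 (chromosome 11, 67583595 to 67586656, plus strand) shares no exonic base with another gene, and 3 reads would have been 0.0990 and 0.0901 FPKM. GSTA1 was also at 0. GPX4, which repairs lipid peroxides, was at 161 and 136, and the reductase GSR at 83.4 and 82.6. The cystine transporter SLC7A11 was at 3.86 and 3.5 and GCLC, the first enzyme of glutathione synthesis, at 5.56 and 4.84. GSR, SLC7A11 and GCLC were chosen after their values were seen.

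Of 37 receptor tyrosine kinases 14 were expressed (37.8%, against 49.9% of all), and AXL and MET stood apart from the rest. MET, the receptor of hepatocyte growth factor, was at 110 and 116 FPKM, 0.841 and 0.962 times AXL, a difference too small to order them. The next were FGFR4 at 35 and 37.0, FGFR1 at 30.7 and 34.2, EGFR at 24.1 and 32.6 and EPHA2 at 23.7 and 23.6. Of the kinases related to AXL, TYRO3 was at 4.43 and 4.33 and MERTK at 0.308 and 0.232. The VEGF receptors FLT1 and KDR, known from endothelium, were listed at 0, as were ALK, TEK and MST1R.

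Of 22 ligands of such receptors 16 were expressed (72.7%, against 49.9% of all). AREG, a ligand of EGFR, was the highest at 134 and 110 FPKM, and the EGFR ligands TGFA and EREG were at 34.5 and 34.2 and at 33.8 and 28.3. HGF, the ligand of MET, was at 0.0128 and 0. The AXL ligand GAS6 was at 2.82 and 2.75, 45-fold ± 2.02 (SD, n = 2) below its receptor, and PROS1 was at 9.67 and 11.7. IGF1 and IGF2 were at 0, with 82% and 75% of their exons shared. Among these kinases and ligands, all but AXL, MET, AREG, ALK, FLT1, KDR, TEK and IGF1 were chosen after their values were seen.

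The cells carried the transcripts of dividing cells. Of 34 proliferation genes 33 were expressed (97.1%, against 49.9% of all), with a median percentile of 95.1. PCNA, the replication clamp, was at 211 and 166 FPKM, CDC20 of mitotic exit at 160 and 131, and MKI67 at 26.1 and 39.1. The exception was CCND2, at 0.0176 and 0.0160, while CCND1 exceeded CCND3 12.6-fold ± 0.493 (SD, n = 2). MKI67 and CCND3 were chosen after their values were seen.

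Of 73 cell death genes 57 were expressed (78.1%, against 49.9% of all). The initiator caspase CASP8 was at 6.65 and 6.09 FPKM, and the death receptor TNFRSF10B was at 51.6 and 54.2. CASP9 was below 1 FPKM at 0.742 and 0.817. Among guardians of survival, MCL1 was at 61.1 and 57.1 and BCL2 at 3.81 and 4.68, both chosen after their values were seen. Genes of necroptosis and pyroptosis were the least represented, with 4 of 12 expressed (33.3%). RIPK3 was at 0 and 0.0353, and CASP1, CASP5, NLRP3 and ZBP1 were at 0, while MLKL was at 4.09 and 3.5 and GSDMD at 15.7 and 14.7. All 7 ubiquitin proteases of the list were expressed, from USP14 at 34.0 and 30.4 to CYLD at 1.68 and 1.64, with USP35 the fifth of them.

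Of 13 class I antigen presentation genes 10 were expressed (76.9%, against 49.9% of all). HLA-C was at 174 and 145 FPKM, HLA-B at 58.3 and 42 and B2M at 96.7 and 77.3. Values of the HLA genes depend on how reads of similar copies and of alleles unlike the reference were counted. Of 16 class II and checkpoint genes 2 were expressed (12.5%), CD276 at 33.7 and 36.1 and CD47 at 7.27 and 6.95. HLA-DPA1, HLA-DPB1 and CD86 were at 0, and CD274, which encodes PD-L1, was at 0.583 and 0.741. CD276, CD47 and CD274 were chosen after their values were seen. Of 15 genes of arginine and the urea cycle 8 were expressed (53.3%, near the 49.9% of all), with ODC1 at 103 and 73.9 and ASS1 at 12.7 and 16.9, and OTC and ARG1 were at 0.

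In several families few members were expressed, where 49.9% of all protein-coding genes were expressed and 24.0% were at 0. Of 386 olfactory receptor genes 360 were listed at 0 and 1, OR2A7, was expressed, at 1.2 and 2.56 FPKM. Of 94 keratin-associated proteins of hair 89 were at 0, of 39 beta defensins 35, of 17 type I interferons 15 and of 24 cancer testis genes 20. None of the members of those 4 groups was at 1 FPKM or more in both libraries. Of 55 cytochrome P450 genes 7 were expressed and of 13 aquaporins 1, AQP3. Of 55 keratins 36 were at 0 and 5 were expressed, 3 of them, KRT80, KRT8 and KRT18, with a mean of 50 FPKM or more.

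Other families held some abundant members. Of 39 proteasome subunits 36 were expressed (92.3%), and of 380 solute carriers 167 (43.9%), against 49.9% of all. The highest solute carriers were the mitochondrial ADP/ATP carriers SLC25A5 at 287 and 249 FPKM and SLC25A6 at 186 and 167. Of 26 integrin subunits 10 were expressed (38.5%), with ITGB1 at 352 and 325 and ITGA3 at 167 and 183. Of 44 collagen genes 8 were expressed (18.2%), led by COL18A1 at 93.4 and 113 FPKM, followed by the basement membrane chains COL4A2 at 37.0 and 44.4 and COL4A1 at 22.2 and 26.5. COL4A2 exceeded COL4A1 1.67-fold ± 0.00900 (SD, n = 2). The members of these families named here were chosen after their values were seen.

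Among 1547 genes annotated to a transcription factor family, 787 were expressed (50.9%, against 49.9% of all). Of the 1547, 332 were at 0 (21.5%, near the 24.0% of all). Families differed widely in the share expressed. Of 191 homeobox genes 35 were expressed and 103 were at 0. Of 47 forkhead genes 17 were expressed and of 101 bHLH genes 41. In contrast, 10 of 11 E2F genes, 33 of 48 bZIP genes and 34 of 44 ZBTB genes were expressed. The highest were YBX1, a cold-shock protein that binds RNA and DNA, at 696 and 591 FPKM and the architectural factor HMGA1 at 255 and 207. The AP-1 member FOSL1 was at 126 and 97.9, ATF4 of the stress response at 125 and 97.7 and MYC at 72.7 and 66.1. PAX8 ranked 23 in this order, and PAX8 and PAX2 were the 2 of 9 PAX genes that were expressed. YBX1, HMGA1, FOSL1, ATF4 and MYC were chosen after their values were seen.

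Base composition of the promoter varied with the level of the gene. A RefSeq promoter matched 15323 of the nuclear protein-coding genes by symbol, chromosome and strand. The observed over expected CpG ratio in the 250 bases upstream of the start had a median of 0.296 for the 3269 genes listed at 0 and 0.621 for the 3698 genes with reads but a mean under 1 FPKM. It was 0.842 for the 7776 genes from 1 to under 50 FPKM and 0.855 for the 580 genes at 50 FPKM or more. The ratio rose from each class to the next, least between the upper classes. CpG-dense windows, with a ratio of at least 0.6 and a GC content of at least 55%, made up 21.4%, 46.1%, 76.2% and 78.3% of the classes in the same order. Over all 15323 windows the median ratio was 0.742 and 57.3% were CpG-dense. Proximal tubule genes had a median ratio of 0.305 over 46 promoters and proliferation genes 0.893 over 25.

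**Figure D4:**
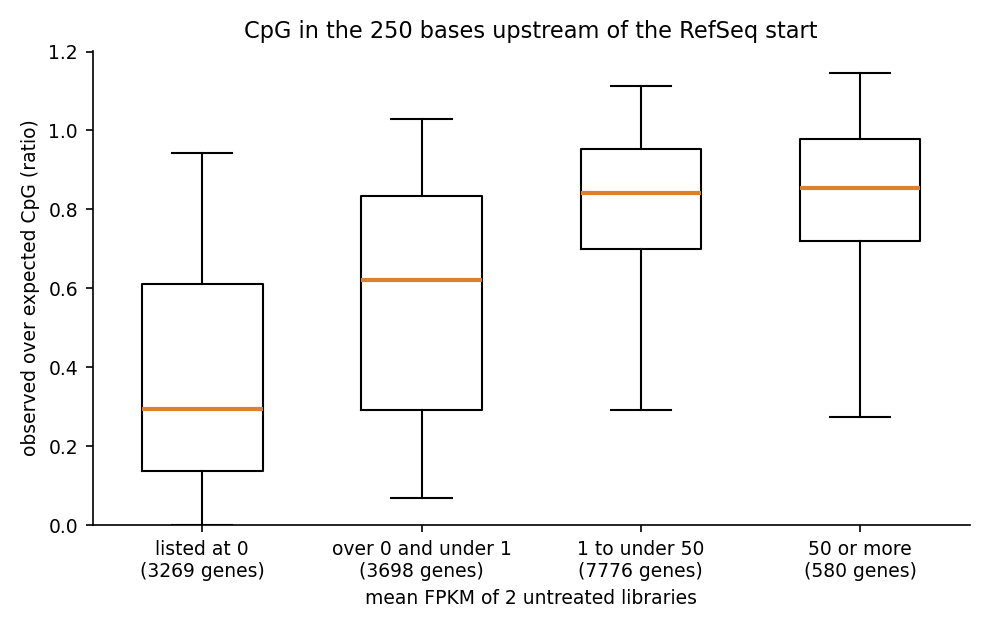
Observed over expected CpG ratio in the 250 bases upstream of the RefSeq start for 15323 genes in 4 classes of mean FPKM. Boxes span the quartiles, whiskers the 5th to the 95th percentile, and lines give the medians of 0.296, 0.621, 0.842 and 0.855.

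Level and CpG content did not go together in every gene, and 3 promoters show the combinations. TMSB10, among the highest nuclear genes, has a CpG-dense window (chr2:84905406-84905655, plus strand, 31 CpG). GSTP1, listed at 0, has a window nearly as dense (chr11:67583562-67583811, plus strand, 28 CpG). SLC22A6, the tubule anion transporter also listed at 0, has a window without CpG (chr11:62984968-62985217, minus strand). AXL, printed above, is the reverse of GSTP1, with 4 CpG and levels of 131 and 120 FPKM.
TMSB10: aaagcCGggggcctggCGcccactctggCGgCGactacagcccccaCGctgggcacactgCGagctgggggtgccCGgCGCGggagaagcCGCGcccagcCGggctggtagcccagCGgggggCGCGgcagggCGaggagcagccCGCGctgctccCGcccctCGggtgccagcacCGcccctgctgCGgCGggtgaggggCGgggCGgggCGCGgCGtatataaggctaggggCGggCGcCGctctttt
GSTP1: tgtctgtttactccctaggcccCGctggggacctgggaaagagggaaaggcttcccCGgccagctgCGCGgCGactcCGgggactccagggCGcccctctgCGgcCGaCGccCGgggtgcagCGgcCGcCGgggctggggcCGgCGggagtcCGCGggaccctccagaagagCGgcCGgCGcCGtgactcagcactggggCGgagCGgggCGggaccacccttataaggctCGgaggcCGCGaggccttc
SLC22A6: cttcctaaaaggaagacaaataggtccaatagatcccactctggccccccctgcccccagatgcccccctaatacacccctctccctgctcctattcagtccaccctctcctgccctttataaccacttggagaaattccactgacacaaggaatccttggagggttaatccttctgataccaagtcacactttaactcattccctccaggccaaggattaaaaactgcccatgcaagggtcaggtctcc
Of the genes listed at 0 with less than 50% of their exons shared, 632 of 3063 had a CpG-dense window like that of GSTP1 (20.6%, against 57.3% of all windows).

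Short motifs were searched on both strands of the same windows. The letters TATAAA were found in 19.5% of windows of genes listed at 0, 10.4% of those with reads under 1 FPKM, 4.32% of those from 1 to under 50 FPKM and 8.79% of those at 50 or more, against 9.19% of all. Olfactory receptor windows held it in 32.4%. The antioxidant response letters TGACNNNGC were in 11 of 48 windows of the NRF2 list, or 22.9%, against 11.5% of all windows. Lists not chosen for NRF2 held it as often or nearly so, with 6 of 25 windows of proliferation genes and 4 of 21 of glycolytic genes, and nothing particular to the NRF2 list is read from it. These include GCLM, TXNRD1, ME1 and PGD, which were expressed, and GSTP1, which was listed at 0. The window of NQO1 holds no such match. The hypoxia response letters ACGTG were in 11 of 26 windows of HIF target genes and 8 of 21 of glycolytic genes, with 7 of 25 of proliferation genes and 20.8% of all, and these include CA9 as well as GAPDH and PGK1.

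The libraries agreed closely in rank and differed by more than counting alone gives. They held 16319640 and 17244546 reads, with 97.0% and 96.9% in protein-coding genes. Over the 10122 genes whose mean reached 1 FPKM, Pearson's r of log2(FPKM + 1) was 0.991 and Spearman's rho 0.989, across genes, which are not independent replicates. Of the 1000 highest genes in each library 928 were shared. The median SD was 8.65% of the mean, and the squared difference in reads had a median of 4.06 times counting variance, where counting alone gives 0.455. A total of 32 genes, or 0.316%, were at least 2-fold apart.

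The difference between the libraries followed gene length. Among genes whose mean reached 5 FPKM, the median log2 difference, replicate 2 minus replicate 1, was -0.30 for 65 genes up to 1 kb and -0.29 for 520 genes of 1 to 2 kb. It was -0.19 for 1932 genes of 2 to 4 kb, -0.07 for 2822 of 4 to 8 kb and 0.08 for 1178 longer genes. The largest ratios upward were EVC at 8.0 and 17.8 FPKM, KMT2D, AHNAK2 at 34.0 and 66.9, RELN at 19.5 and 37.9 and UBR4 at 11 and 20.1. The largest downward were MED27 at 13.3 and 6.73, the metallothionein MT2A at 299 and 153, SIK1B, SURF2 and MTLN. The part of length in the other pairs of values, such as those of LGALS1, FN1 and MKI67, was not tested. For this reason levels are printed for both libraries. Neighbours in a list whose levels differ by as little, such as AXL and MET or HOXD8 and HOXC9, are not told apart.

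**Figure D5:**
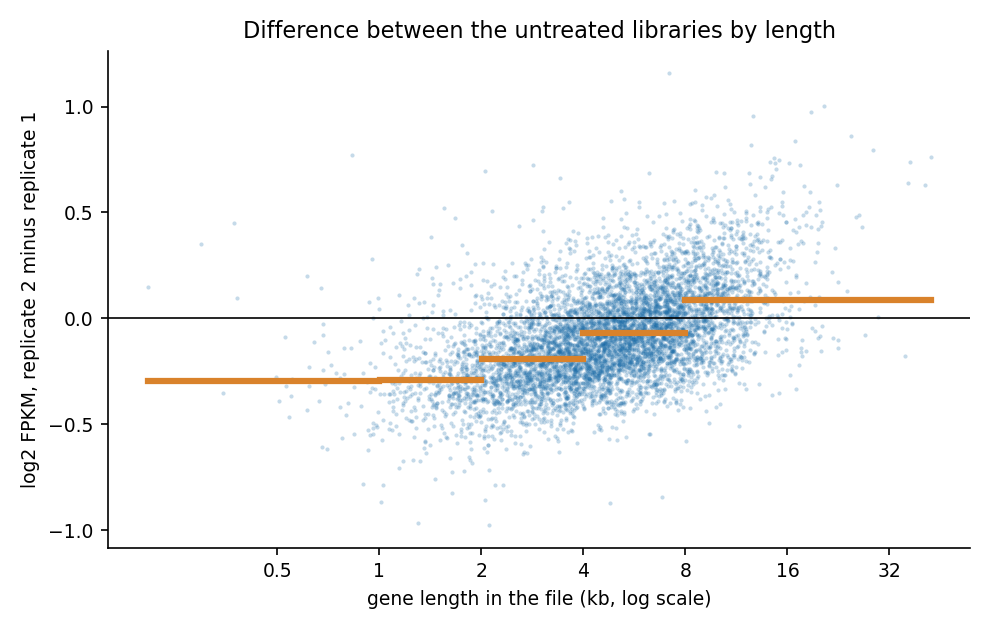
Log2 FPKM in replicate 2 minus replicate 1 against gene length in kb (log scale), 1 dot per protein-coding gene whose mean reached 5 FPKM, with the median of each length class as a bar. The bars run from -0.30 for genes up to 1 kb to 0.08 for genes over 8 kb.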

How the data were processed

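RNA was extracted with TRIzol and a Qiagen column and made into Illumina libraries, per the labels' protocols. The submitters' processing notes name HISAT2 2.0.5, limma and featureCounts 1.5.0-p3 but not what each did. The reference genome, the strandedness, the treatment of reads that map to several places and the rule for the library size are not given in the sources used here. The authors deposited the values as FPKM per gene, 1 table per library, per the file headers.

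All 58735 rows matched GENCODE release 29 (GRCh38) in position and in exonic length. FPKM times length was a whole multiple of 1 step per library for 100% of rows at a tolerance of 0.02 reads, so reads were recovered as whole numbers. The library size behind the FPKM was 97.2% and 101.0% of the recovered reads. For a gene of 2 kb, 1 FPKM is about 31.7 and 34.8 reads, and 3 reads, the limit that a count of 0 allows, are 0.0945 and 0.0861 FPKM. These limits and floors hold counting error alone, and reads are not independent molecules. The recovery returned 100% of simulated reads over 58735 rows for each library.

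Groups came from the sample titles. A gene is called expressed at 1 FPKM or more in both libraries. Percentiles are of the mean FPKM among the 19951 protein-coding rows, where genes at 0 share percentile 12.0. Where 1 symbol names several rows (17 symbols), the longer row was used, and 27 rows carry date-like symbols. No test was run, because 1 group was described. Gene lists (24, with 795 of 802 entries matched by symbol) and 20 families set by symbol pattern were described by counts and medians. The lists and the family patterns were chosen, and the patterns corrected, with earlier results of these data known. Genes named by rule were the 5 markers, USP35, the 20 highest, the 3 highest and 3 lowest of each list (all members of lists or roles of up to 15), expressed HOX genes and the 5 largest ratios each way between libraries. Every other gene named was chosen after its values were seen. Some genes that the rule names are not reported here, although they count in their lists. Shared exonic bases were computed from the annotation over both strands. Promoter windows are 250 bases from RefSeq (GRCh38.p14), joined by symbol. The expected CpG number is the product of C and G counts over window length. Python 3.11.15, pandas 2.3.3, numpy 2.4.6, scipy 1.17.1 and matplotlib 3.10.9 were used.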

Additional observations from a re-analysis of the deposited data

How the results depend on the processing

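No paired analysis was possible because no contrast between groups is made. The counts of expressed genes and of genes at 0 stayed within 1.5 times under every alternative run, from 8753 to 11948 expressed and from 4166 to 7007 at 0, the last counting genes under 0.1 FPKM. The share of the 100 highest genes was 21.8% without mitochondrially encoded genes and 42.3% over all biotypes. Genes at least 2-fold apart numbered 2 at a mean of 5 FPKM or more and 3 with a pseudocount of 1 and no filter.

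Counts of expressed list members, which are 17 for proximal tubule genes and 7 for HOX genes, changed with the threshold. At 1 TPM, which is lower than 1 FPKM here, they were 27 for proximal tubule, 1 for leukocyte, 3 for fibroblast and mural, 11 for HOX, 2 for olfactory receptor, 2 for taste receptor, 1 for keratin-associated, 1 for beta defensin, 8 for keratin, 3 for aquaporin, 16 for integrin, 12 for cytochrome P450 and 13 for histone genes. At 0.5 FPKM they were 3 for fibroblast and mural, 2 for taste receptor, 1 for keratin-associated, 1 for beta defensin and 3 for aquaporin genes. At 2 FPKM they were 0 for olfactory receptors, 0 for aquaporins, 172 for ZNF genes, 1 for metallothioneins and 3 for histone genes. With 1 library left out, aquaporins numbered 2 either way.

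Leaving out members that overlap an exon on the other strand removes genes by construction. It moved 18 of 44 counts, more than any threshold did, and left 0 fibroblast and mural, 16 mesenchymal, 13 HIF target, 11 glycolytic, 10 tumour, 36 NRF2, 19 receptor tyrosine kinase, 16 lipid, 20 proliferation, 29 cell death, 7 antigen presentation, 13 actin, 8 translation factor, 47 ribosomal protein, 2 HOX, 1 keratin, 5 integrin and 100 solute carrier genes. Leaving out members with at least 50% of exons shared, an alternative chosen after seeing the data, moved 0 of 44 counts by over 1.5 times.

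The median CpG ratio rose with level under both alternatives. It was 0.571, 0.832 and 0.862 for the 3 classes with reads when limited at 0.5 and 20 FPKM, and 0.285, 0.589, 0.834 and 0.861 for the 4 classes over genes that overlap no exon on the other strand. By more than the SD between libraries, 26 of 44 median percentiles moved without division by length, and 24 and 25 of 44 with 1 library left out.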

Other observations

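Some other families are given by their counts, beside 49.9% of all protein-coding genes expressed. Of 20 S100 genes, which encode small calcium-binding proteins, 9 were expressed (45%) and 6 were listed at 0 (30%, against 24.0% of all). S100A11 led with 652 and 551 FPKM, followed by S100A10 at 341 and 322 and S100A6 at 327 and 278. Of 45 ABC transporters 23 were expressed (51.1%, near that of all genes), with the exporters ABCC2 at 32.3 and 40.02, ABCC4 at 29.9 and 40.6 and ABCC3 at 19.5 and 24.6. Of 509 genes with ZNF symbols 289 were expressed (56.8%), and the highest mean was 30.1 FPKM. Of 24 claudins 9 were expressed (37.5%).

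Some families were low apart from 1 or a few members. Of 11 metallothioneins 2 were expressed (18.2%, against 49.9% of all), MT2A, and MT1X at 3.56 and 1.49 FPKM. Of the 11, 6 were listed at 0 (54.5%, against 24.0% of all). Of 71 histone genes of the HIST clusters 6 were expressed (8.45%, against 49.9% of all), led by HIST1H2BK at 15.2 and 16.3. Of the 71, 29 were at 0 (40.8%, against 24.0% of all). Among cytochrome P450 genes, CYP27A1 was the highest at 7.73 and 8.41. Metallothionein genes are close copies of each other, as are many histone genes, so that their values are uncertain. The part of this in the low values was not tested.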
